A study of Homo sapiens with 12 samples.

Results

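JUN, JUNB, JUND, FOSL2, IER2, IER5, KLF6, KLF10, DUSP4 and SGK1 are genes of the AP-1 transcription factor and of the immediate early response. They were chosen by name, with earlier results of these data known, and are 10 of the 9529 genes measured. Shares of the 10 set beside shares of all genes below are therefore descriptions. All 10 were read in all 12 libraries and passed the filter on low values (a mean signal of at least 1). The cells were NOMO-1, a human acute myeloid leukaemia line with monocytic features. In every group they had been infected with a hairpin lentivirus and selected with puromycin, and polyadenylated RNA was sequenced after 0, 8 or 12 h in actinomycin D, a drug that blocks transcription. The knockdown groups (shALKBH5 at 0, 8 and 12 h) held 2 libraries each, 1 from each of 2 lines with a different hairpin against ALKBH5, here called line D and line E after their column letters. The control groups (shNS at 0, 8 and 12 h) held 2 libraries each from cells with a non-targeting hairpin, replicates 1 and 2. The labels number the hairpins and the columns letter them, so which hairpin is D and which is E is unknown here. The lines are selected populations in which a hairpin lowers ALKBH5 without deleting it, and no label says that replicates are separate cultures, so each p-value compares a difference with the scatter of these libraries alone, part of which may be technical.

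AP-1 is a pair of proteins of the JUN and FOS families that binds DNA together and switches on genes of growth, stress and myeloid differentiation. Immediate early genes are transcribed within minutes of a signal without new protein synthesis, and many of their mRNAs are short-lived and carry AU-rich stretches in the 3′UTR. ALKBH5 removes N6-methyladenosine (m6A) from RNA, a mark whose reader proteins can shorten or lengthen the life of an mRNA. Once actinomycin D has stopped transcription, the level that is left at a later time reflects how long the existing mRNA lasts.

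The targeted gene was low in both knockdown lines. Before the drug ALKBH5 had a signal of 25.4 and 21.2 in lines D and E, against 84.3 and 78.6 in the shNS replicates, a log2 difference of −1.77 (SE 0.29, limma adjusted p = 0.0202). It was lower in knockdown at 8 h by −3.26 and at 12 h by −2.37 as well (adjusted p = 0.000312 and 0.00534). The deposited signal was apparently scaled to spike-in RNA, since the median of 46 spike-in transcripts stayed between 29.9 and 33.1 in every library while the summed gene signal fell to between 143765 and 193639 at 12 h, against between 826000 and 953211 at 0 h. Of 12 myeloid markers 7 were in the table, with a summed signal at 0 h of 1135 and 1234 in lines D and E, against 830 and 789 in the shNS replicates. CD68, a monocyte and macrophage marker, was higher in knockdown at 0, 8 and 12 h (log2 difference 1.14, 1.01 and 1.18, adjusted p = 0.0338, 0.0285 and 0.0343). The part of these markers in the results below was not tested. No marker of the erythroid, megakaryocyte, epithelial and kidney, or fibroblast lists was in the table.

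Before the drug none of the 10 genes differed between knockdown and shNS past the threshold (adjusted p under 0.05, 1.47% of all 9529 genes called). An unadjusted p under 0.05 was found for 2 members, JUND and FOSL2, beside 2115 of all 9529 genes. After 8 h SGK1, IER2, IER5 and KLF10 were lower in knockdown, 4 of the 10, against 4.51% of all genes called lower. After 12 h none of the 10 passed the threshold (1.02% of all genes called), with 3 at an unadjusted p under 0.05, beside 1675 of all 9529 genes. With each library scaled to its median gene (median-of-ratios) 4 passed at 12 h. IER2, IER5 and SGK1 were lower on that scale (−0.82, −0.61 and −1.44, adjusted p = 0.0129, 0.0182 and 0.0271), beside 8.14% of all genes called lower, and JUND was higher, beside 8.48% called higher. The test of whether the difference itself changed with time, given below, called none of the 10 genes with lines taken as independent. The median log2 difference of the 10 genes was 0.17 at 0 h, −0.89 at 8 h and −0.41 at 12 h, beside 0.23, −0.23 and 0.06 for all genes.

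**Figure D1:**
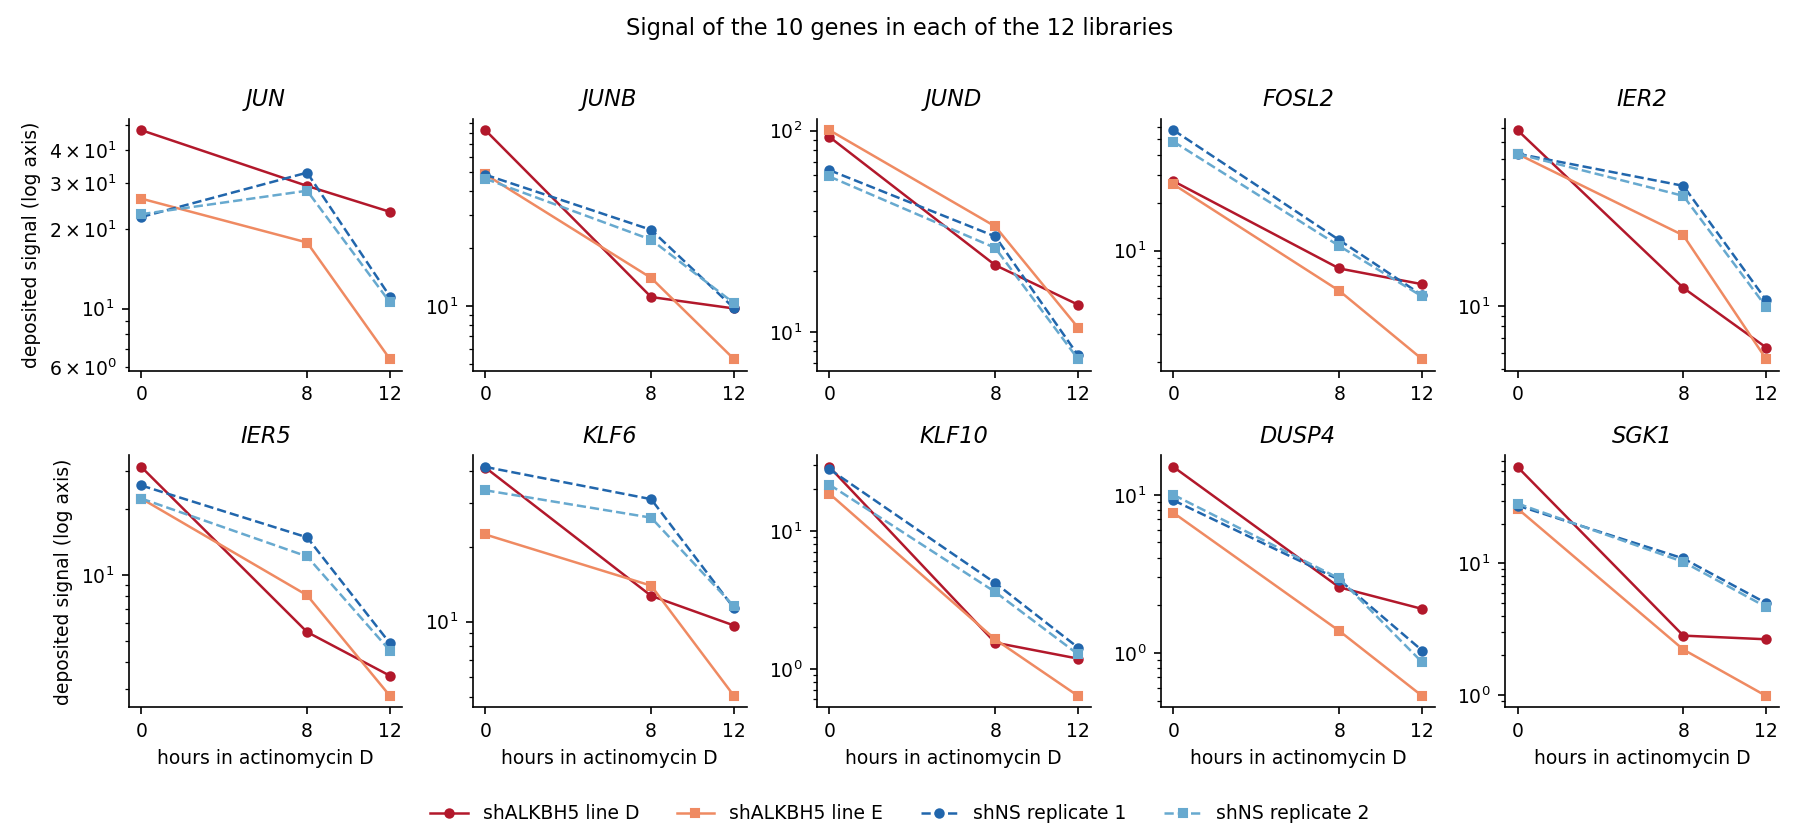
Deposited signal (log axis, a separate range for each gene) against hours in actinomycin D for each of the 10 genes, with 1 line of points for each shALKBH5 line (red shades, solid) and each shNS replicate (blue shades, dashed). JUN is the one gene with curves above their start at 8 h, those of the shNS replicates (32.8 and 28.0 at 8 h, against 22.3 and 22.8 at 0 h).

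JUN, at chr1:58780788-58784327 on the minus strand (GRCh38, GENCODE release 29), encodes c-Jun, the AP-1 subunit that gave the family its name. Before the drug its signal was 47.6 and 26.2 in lines D and E, against 22.3 and 22.8 in the shNS replicates. After 8 h it was 29.2 and 17.8 in lines D and E, against 32.8 and 28.0 in the shNS replicates. Both knockdown lines had less JUN than before the drug, and both shNS replicates had more. After 12 h JUN was 23.3 and 6.42 in lines D and E, against 11.1 and 10.6 in the shNS replicates, so the lines lay on either side of the control. The share of the 0 h signal that was left at 8 h in the same line (percent left) was 61.4% and 68.1% in lines D and E, against 147% and 123% in the shNS replicates. Only 31 of 9529 genes lay above 100% in both shNS replicates at 8 h, and 6 did so in both knockdown lines. JUN ranked at place 11 and 12 from the top in the shNS replicates and at place 389 and 341 in lines D and E.

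None of the tests of JUN with lines taken as independent passed the threshold before 12 h. The log2 difference of knockdown from shNS was 0.63 at 0 h (SE 0.44, adjusted p = 0.423), −0.39 at 8 h (adjusted p = 0.607) and 0.18 at 12 h (adjusted p = 0.861). The log2 change by 8 h was −0.61 in knockdown (adjusted p = 0.199) and 0.41 in shNS (adjusted p = 0.390). By 12 h JUN had fallen in both arms, by 1.44 on the log2 scale in knockdown (SE 0.44, adjusted p = 0.00707) and by 0.99 in shNS (adjusted p = 0.0448). The fall in knockdown lost its call without the 0 h library of line D (adjusted p = 0.0728) or the 12 h library of line E (adjusted p = 0.127), and the fall in shNS lost it without any of the 6 shNS libraries (adjusted p between 0.059 and 0.114).

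JUNB, at chr19:12791496-12793315 on the plus strand, encodes a JUN-family subunit that can take the place of c-Jun in AP-1 and is active in myeloid cells. It had 82.9 and 48.7 in lines D and E at 0 h, against 48.5 and 46.2 in the shNS replicates. After 8 h in the drug it had 11.2 and 14.0 in lines D and E, against 25.0 and 22.2 in the shNS replicates. JUNB was thus no lower in knockdown before the drug and was lower in both lines after 8 h, with no overlap. Percent left at 8 h was 13.5% and 28.8% in lines D and E, against 51.5% and 48.1% in the shNS replicates. The log2 difference at 8 h was −0.86 (SE 0.29, adjusted p = 0.0917), short of the threshold. At 12 h JUNB had 9.72 in line D, close to the 9.76 and 10.4 of the shNS replicates, and 5.29 in line E.

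JUND, at chr19:18279760-18281622 on the minus strand, encodes the JUN-family subunit that is present in most resting cells and is the least inducible of the family. Its signal at 0 h was 93.1 and 101 in lines D and E, against 63.6 and 59.2 in the shNS replicates, a log2 difference of 0.65 (SE 0.23, adjusted p = 0.136). At 8 h the groups overlapped, with 21.5 and 33.4 in lines D and E, against 29.8 and 26.1 in the shNS replicates. At 12 h JUND had 13.6 and 10.5 in lines D and E, against 7.64 and 7.31 in the shNS replicates. It was the only member that was higher in both lines than in both shNS libraries at 12 h, where 33.0% of all genes were, and its log2 difference there was 0.61 (SE 0.23, adjusted p = 0.189). With median-of-ratios scaling that difference was 0.59 and passed the threshold (adjusted p = 0.0251), and the difference at 8 h was 0.23 instead of −0.06.

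FOSL2, at chr2:28392448-28417312 on the plus strand, encodes FRA2, a FOS-family partner of the JUN proteins, and was the FOS-family gene in the table. It was the member that was lower in knockdown before the drug, with 27.3 and 26.1 in lines D and E, against 57.2 and 48.5 in the shNS replicates. By 8 h it was at 7.72 and 5.58 in lines D and E, against 11.6 and 10.7 in the shNS replicates. At 12 h it had 6.14 and 2.07 in lines D and E, against 5.23 and 5.14 in the shNS replicates, so the groups overlapped. The 0 h difference was −0.95 on the log2 scale (SE 0.31, adjusted p = 0.121). Over 20 other settings it ran from −1.14 to −0.84, and it passed the threshold only where a library stood alone in a group.

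Over the 3 times together, in a model of time and knockdown with a correlation of 0.251 within lines, FOSL2 was lower in knockdown by −0.68 (SE 0.21, adjusted p = 0.0391), beside 4.19% of all genes called lower. It was the 1 member called across times, with KLF6 at −0.65 (adjusted p = 0.0538) and SGK1 at −0.81 (adjusted p = 0.0926). The FOSL2 call held in 12 of 22 other settings. It was lost with the lines averaged over time (adjusted p = 0.0727), with median-of-ratios scaling (0.143) and with spike-in rescaling (0.0645). It was lost too on leaving out 1 of 7 libraries (adjusted p between 0.0507 and 0.162), which were shALKBH5 line D at 0 h or 8 h, line E at 12 h, shNS replicate 1 at 0, 8 or 12 h and shNS replicate 2 at 8 h. FOSL2 was also the member whose percent left at 8 h was not lower in knockdown, at 28.2% and 21.4% in lines D and E, against 20.4% and 22.0% in the shNS replicates.

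Windows of up to 60 bases around AP-1-like and CRE-like motifs are shown for the promoters of FOSL2, JUN, JUND and KLF6. AP-1 genes are known to be regulated by AP-1 itself, and KLF6 is not an AP-1 gene. RefSeq promoters (GRCh38.p14, 250 bases before to 50 after the start, 35116 genes) were searched on both strands for TGANTCA, TGACGTCA and TGANNTCA, the last of which contains TGACGTCA and was added after the data were seen. Of the 10 genes 8 had an entry. TGANTCA was in 7.71% of all promoters and in 1 member, FOSL2, 5 bases after the start. TGACGTCA was in 1.85% of all promoters and in 1 member, JUND, 200 bases before the start. TGANNTCA was in 11.5% of all promoters and in 3 members, JUND, JUN at 67 bases before the start and KLF6 at 172 bases before it. JUND had a further match to it at 54 bases before the start, which is not shown. Each window is given 5′ to 3′ on the strand of the gene, with the motif in capitals, at chr2:28392836-28392894 (59 bases, plus), chr1:58784081-58784140 (minus), chr19:18281789-18281848 (minus) and chr10:3785348-3785407 (minus).
FOSL2: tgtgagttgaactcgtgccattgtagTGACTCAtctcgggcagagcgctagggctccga
JUN: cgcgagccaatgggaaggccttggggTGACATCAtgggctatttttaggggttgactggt
JUND: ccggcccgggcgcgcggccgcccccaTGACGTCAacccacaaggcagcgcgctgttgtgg
KLF6: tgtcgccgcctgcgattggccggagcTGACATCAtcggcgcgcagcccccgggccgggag
The matches describe letters in these windows and say nothing of what binds there.

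IER2 and IER5 are immediate early response genes of 1 family, whose proteins are found in the nucleus and act with the phosphatase PP2A. IER2, at chr19:13150415-13154908 on the plus strand, had 68.7 and 52.9 in lines D and E at 0 h, against 53.1 and 52.9 in the shNS replicates. Its signal at 8 h was 12.2 and 21.7 in lines D and E, against 37.3 and 33.4 in the shNS replicates. Levels that overlapped before the drug were thus apart after 8 h, with a log2 difference of −1.07 (SE 0.25, adjusted p = 0.0371). At 12 h IER2 had 6.34 and 5.58 in lines D and E, against 10.6 and 9.89 in the shNS replicates, a log2 difference of −0.70 (adjusted p = 0.173). Percent left at 8 h was 17.8% and 41.0% in lines D and E, against 70.3% and 63.1% in the shNS replicates. In shNS the fall of IER2 by 8 h was small, a log2 change of −0.57 (SE 0.25, adjusted p = 0.0481), and lost its call on leaving out any of the 6 shNS libraries (adjusted p between 0.0682 and 0.189).

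IER5, at chr1:181088712-181092899 on the plus strand, is also known as a target of heat shock factor HSF1 and of p53. It had 31.2 and 22.4 in lines D and E at 0 h, against 25.7 and 22.4 in the shNS replicates. Its level at 8 h was 5.47 and 8.06 in lines D and E, against 14.9 and 12.1 in the shNS replicates. The order was that of IER2, with overlap at 0 h and none at 8 h, and the log2 difference at 8 h was −0.91 (SE 0.23, adjusted p = 0.0456). At 12 h IER5 had 3.45 and 2.79 in lines D and E, against 4.85 and 4.49 in the shNS replicates (log2 difference −0.47, adjusted p = 0.317). Percent left at 8 h was 17.5% and 36.0% in lines D and E, against 57.8% and 54.3% in the shNS replicates.

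KLF6 and KLF10 are zinc-finger transcription factors of the Krüppel-like family, KLF10 being induced by transforming growth factor beta. KLF6, at chr10:3775996-3785281 on the minus strand, had 41.5 and 22.4 in lines D and E at 0 h, against 41.7 and 33.6 in the shNS replicates. After 8 h it had 12.7 and 13.9 in lines D and E, against 31.0 and 26.1 in the shNS replicates. Line E started low, and by 8 h both lines were below both shNS replicates, with a log2 difference of −1.04 (SE 0.31, adjusted p = 0.0652). Over 20 other settings that difference ran from −1.16 to −0.76, and it passed the threshold only where a library stood alone in a group. KLF6 had 74.3% and 77.7% left at 8 h in the shNS replicates, against 30.6% and 62.4% in lines D and E. Among all genes of the same line this was percentile 88.6 and 93.4 in the shNS replicates. In lines D and E it was percentile 65.5 and 93.3, so KLF6 was among the mRNAs that lasted in line E too. At 12 h KLF6 had 9.66 and 5.04 in lines D and E, against 11.3 and 11.5 in the shNS replicates. KLF10 lost more than most genes in all lines, with 5.34% and 8.80% left at 8 h in lines D and E, against 15.0% and 16.7% in the shNS replicates. It had 29.0 and 18.6 at 0 h in lines D and E, against 27.9 and 21.6 in the shNS replicates. Its 8 h signal was 1.55 and 1.63 in lines D and E, against 4.19 and 3.60 in the shNS replicates, a log2 difference of −0.92 (SE 0.23, adjusted p = 0.0461) on a log2(signal + 1) scale that understates changes this near to 1. At 12 h KLF10 had 1.19 and 0.636 in lines D and E, against 1.43 and 1.27 in the shNS replicates.

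DUSP4 encodes a nuclear phosphatase that switches off MAP kinases and is itself induced by ERK signalling. It had 15.0 and 7.69 in lines D and E at 0 h, against 9.23 and 10.0 in the shNS replicates. At 8 h it had 2.60 and 1.38 in lines D and E, against 2.90 and 2.96 in the shNS replicates (log2 difference −0.43, adjusted p = 0.422). At 12 h line D had 1.90 and line E 0.534, against 1.04 and 0.872 in the shNS replicates. The lines lay on either side of the control at 0 h and 12 h, and percent left at 8 h was 17.3% and 17.9% in lines D and E, against 31.4% and 29.6% in the shNS replicates.

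SGK1, at chr6:134169246-134318112 on the minus strand, encodes a kinase of the PI3K pathway that is induced by serum and glucocorticoids and phosphorylates NEDD4L, NDRG1 and FOXO3. It had 54.1 and 26.1 in lines D and E at 0 h, against 27.5 and 28.5 in the shNS replicates. At 8 h it had 2.83 and 2.22 in lines D and E, against 10.9 and 10.3 in the shNS replicates. At 12 h it had 2.65 and 0.984 in lines D and E, against 4.99 and 4.66 in the shNS replicates. The 0 h levels overlapped and the later ones did not. The log2 difference at 8 h was −1.72 (SE 0.32, adjusted p = 0.0210) and at 12 h −1.11 (SE 0.32, adjusted p = 0.108). Percent left at 8 h was 5.22% and 8.48% in lines D and E, against 39.6% and 36.0% in the shNS replicates. This put SGK1 at percentile 0.882 and 1.92 of all genes in lines D and E, against percentile 45.9 and 41.6 in the shNS replicates. Between 8 and 12 h the order was another, with 93.8% and 44.4% of the 8 h signal kept in lines D and E, against 45.8% and 45.4% in the shNS replicates.

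**Figure D2:**
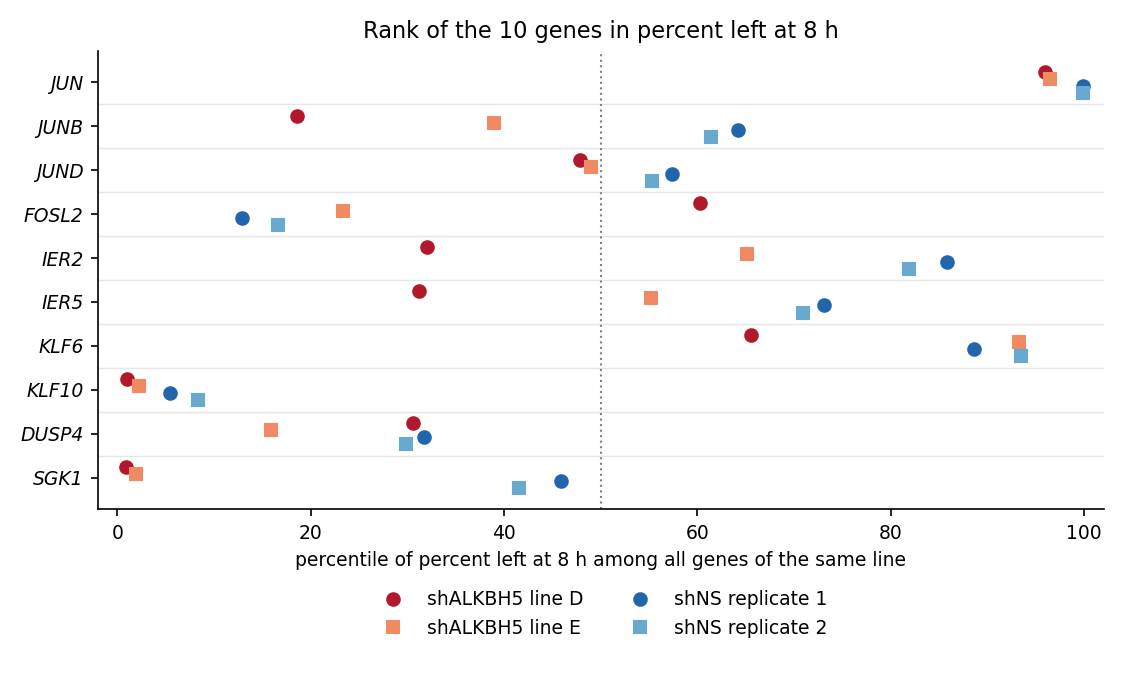
Percentile of each gene's percent left at 8 h among all 9529 genes of the same line (50 is the median gene), with shALKBH5 lines in red shades and shNS replicates in blue shades. SGK1 sits at 0.882 and 1.92 in lines D and E, against 45.9 and 41.6 in the shNS replicates, while FOSL2 ranks higher in both lines than in both replicates.

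The 4 calls at 8 h rest on few libraries. None of the 10 genes was called without shALKBH5 line D at 8 h, shNS replicate 1 at 8 h or shNS replicate 2 at 8 h, and 1, SGK1, was called without shNS replicate 1 or 2 at 0 h or at 12 h. Spike-in rescaling left SGK1 alone (adjusted p = 0.0322), beside 1.37% of all genes called lower. Median-of-ratios scaling left SGK1, IER2 and IER5 (adjusted p = 0.0414, 0.0267 and 0.026), with KLF10 at 0.061, beside 3.38% of all genes called lower.

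**Figure D3:**
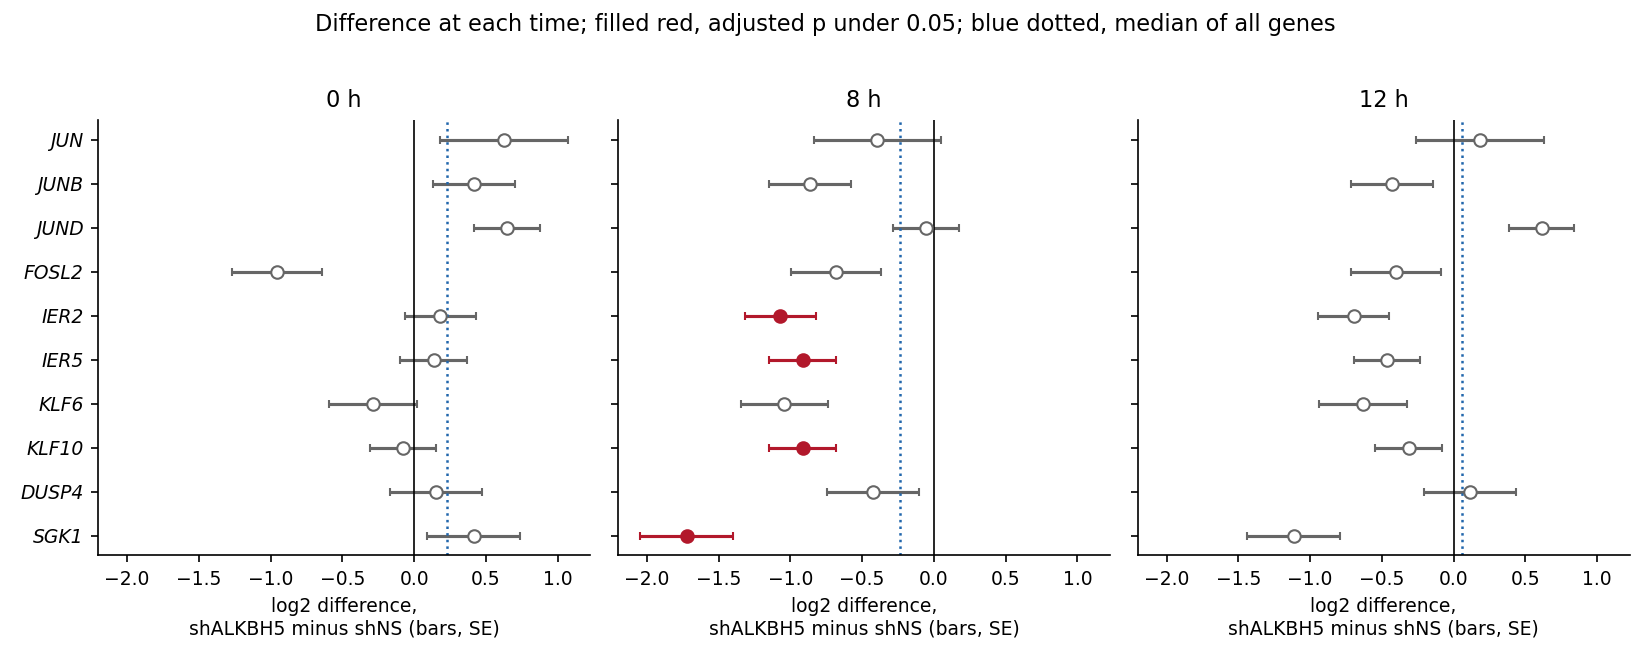
Log2 difference of shALKBH5 from shNS at 0, 8 and 12 h for each gene, with the SE from limma as bars, filled red where the adjusted p was under 0.05, and the median of all genes as a blue dotted line (0.23, −0.23 and 0.06). The 4 filled points are IER2, IER5, KLF10 and SGK1 at 8 h.

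Counts of groups that did not overlap give the same values without a model. At 0 h both lines were higher than both shNS libraries for JUN, JUNB and JUND (46.4% of all genes were) and lower for FOSL2 (6.88% of all genes were). At 8 h no member was higher in both lines (10.4% of all genes), and 8 were lower, all but JUN and JUND, against 42.8% of all genes. At 12 h JUND was higher, and JUNB, IER2, IER5, KLF6, KLF10 and SGK1 were lower, 6 of 10 against 25.0% of all genes.

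The changes over time asked how much of each mRNA was left after transcription had stopped. By 8 h 9 of the 10 genes had fallen in knockdown (all but JUN, and 96.0% of all genes) and 8 in shNS (all but JUN and KLF6, and 82.2% of all genes). By 12 h all 10 had fallen in knockdown (99.6% of all genes) and all 10 in shNS (99.5% of all genes). The median percent left of the 10 genes at 8 h was 17.6% and 31.0% in lines D and E, against 49.2% and 46.1% in the shNS replicates. All genes together had 23.9% and 33.6% in lines D and E, against 42.2% and 41.1% in the shNS replicates. At 12 h the 10 genes had a median of 12.2% and 10.5% in lines D and E, against 18.5% and 17.5% in the shNS replicates, beside 10.9%, 10.7%, 11.9% and 12.9% for all genes in the same order of lines. A fall per unit of spike-in cannot be told apart from a loss of cells or of RNA per cell, and line D had the lowest median percent left at 8 h of the 4 lines.

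Median-of-ratios scaling took the median change of all genes by 8 h to 0.04 in both arms, against −1.66 in knockdown and −1.15 in shNS on the deposited scale. On it 2 members were called lower by 8 h in knockdown, KLF10 at −1.56 and SGK1 at −1.73 (adjusted p = 0.000489 and 0.0044), beside 23.7% of all genes called lower, with JUN at 1.16 (adjusted p = 0.0852) and KLF6 at 0.61 (adjusted p = 0.0869). In shNS 4 members were called higher on that scale, beside 18.9% of all genes. These were JUN at 1.62 (adjusted p = 0.0267), IER2 at 0.69 (adjusted p = 0.00839), IER5 at 0.43 (adjusted p = 0.0274) and KLF6 at 0.86 (adjusted p = 0.0258). KLF10 was called lower in shNS at −1.15 (adjusted p = 0.00186), beside 23.6% of all genes called lower.

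**Figure D4:**
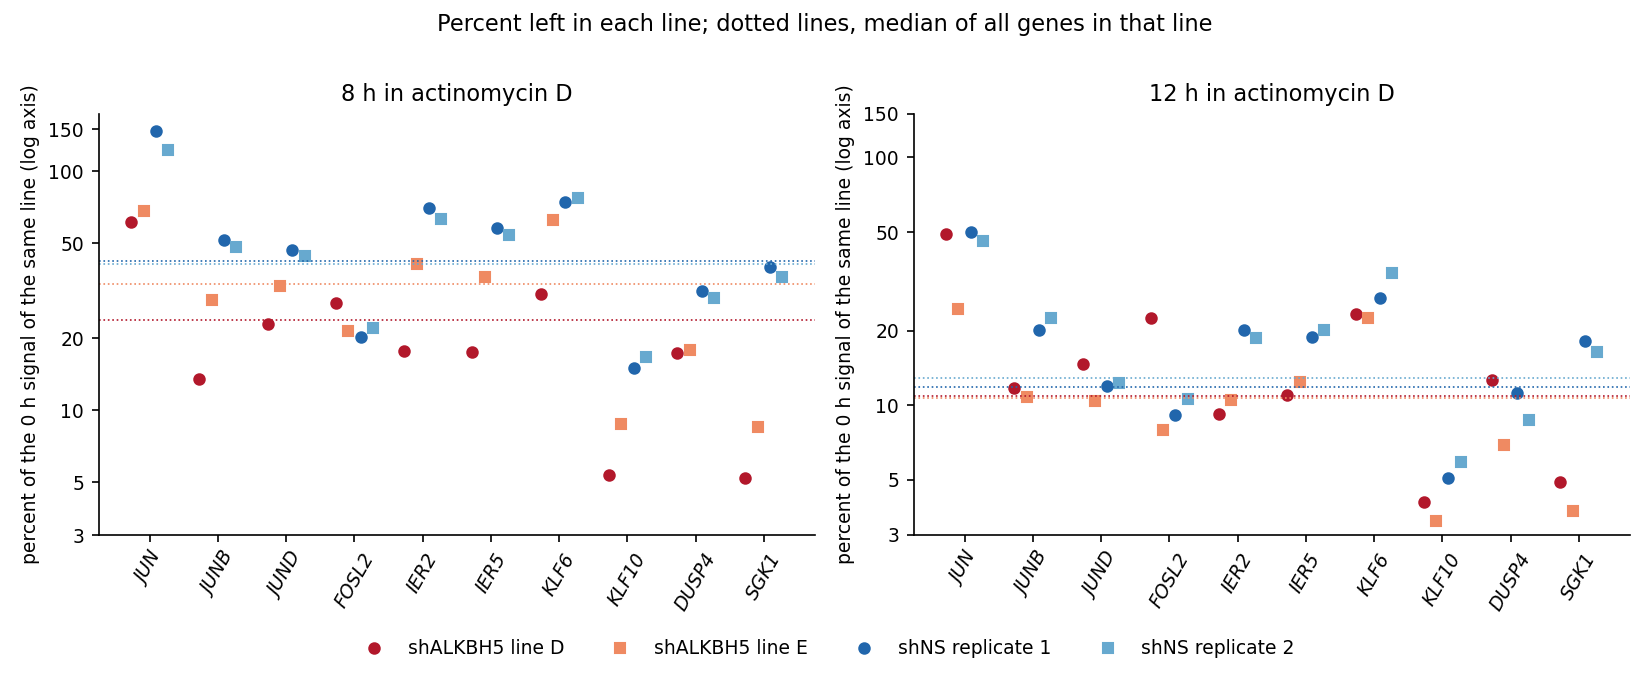
Percent of the 0 h signal of the same line left at 8 h and at 12 h (log axis) for each gene, with shALKBH5 lines in red shades left of shNS replicates in blue shades and the median of all genes in each line as a dotted line. At 8 h the all-gene medians are 23.9% and 33.6% in lines D and E, against 42.2% and 41.1% in the shNS replicates, and JUN is the one gene above 100%, at 147% and 123% in the shNS replicates.

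Percent left at 8 h was lower in both lines than in both shNS replicates for 9 of the 10 genes, all but FOSL2, where 82.5% of all genes were. At 12 h this held for 6 of the 10, JUNB, IER2, IER5, KLF6, KLF10 and SGK1, against 41.2% of all genes. The test of the difference itself, the knockdown change minus the shNS change, called none of the 10 genes at 8 h and 0 of 9529 genes (0%), with 1560 genes and 6 members at an unadjusted p under 0.05. The values were −2.14 for SGK1 (SE 0.46, adjusted p = 0.299), −1.28 for JUNB, −1.25 for IER2, −1.05 for IER5 and −1.02 for JUN (adjusted p = 0.299 for JUNB, IER2 and IER5 and 0.325 for JUN), beside −0.48 for the median gene. At 12 h none of the 10 and 0 of 9529 genes (0%) were called, with 337 genes and 2 members at an unadjusted p under 0.05, SGK1 at −1.53 and IER2 at −0.88.

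Each knockdown line was followed through the 3 times, and with the line as a block limma called the difference at 8 h lower for 8 of the 10 genes, against 26.1% of all genes. SGK1 (adjusted p = 1.02e-12), JUNB (4.86e-05), IER2 (6.54e-05), JUN (0.00218), IER5 (0.00312), KLF10 (0.0156), KLF6 (0.0214) and JUND (0.026) were called, and DUSP4 (0.0588) and FOSL2 (0.358) were not. At 12 h the block called JUNB, IER2 and SGK1 lower (adjusted p = 0.0332, 0.0227 and 6.51e-06), beside 2.19% of all genes. Blocking the knockdown lines alone, chosen after the data were seen, called 8 of 10 lower at 8 h (21.7% of all genes) and 2, IER2 and SGK1, at 12 h (1.56% of all genes). With the block JUN was higher at 8 h than at 0 h in shNS (adjusted p = 0.0197), where 12 of 9529 genes were called higher. It was lower in knockdown (adjusted p = 0.000498), where 9451 of 9529 genes were called lower. The blocked fits took 1 spread for all genes of like level. With the spread of each gene alone, also chosen after the data were seen, neither change of JUN was called (adjusted p = 0.232 in shNS and 0.101 in knockdown), and the difference of the changes was called for 0 of 9529 genes (0%) at 8 h and at 12 h. Among the 10 genes the adjusted p of that difference at 8 h then ran from 0.173 to 0.609, with 6 members and 2722 genes at an unadjusted p under 0.05.

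The lines differed from each other before the drug. At 0 h line D had at least 1.5 times the signal of line E for 6 of the 10 genes, JUN, JUNB, KLF6, KLF10, DUSP4 and SGK1, against 16.4% of all genes. The ratio of line D to line E ran from 0.926 for JUND to 2.07 for SGK1. From 8 to 12 h the 10 genes kept a median of 76.3% and 36.6% in lines D and E, against 34.9% and 37.3% in the shNS replicates, beside 48.1%, 32.9%, 30.0% and 32.9% for all genes.

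The 3′UTRs of the members were read from GENCODE release 29 and searched for ATTTA, the pentamer of AU-rich elements, and for TTATTTATT, a longer AU-rich nonamer that contains it. A 3′UTR was read for 8645 genes, 90.7% of the table. ATTTA was in 69.1% of them and TTATTTATT in 8.03%. Per kilobase SGK1 had 4.92 pentamers, JUNB 4.00 and IER5 3.32, beside a median of 1.55, and IER2 had none in 1050 bases. The others lay nearer to the median, JUN at 2.33, KLF10 at 2.22, FOSL2 at 1.85, KLF6 at 1.69, DUSP4 at 1.51 and JUND at 1.47. The nonamer was in 3 members, IER5 with 3 overlapping copies and FOSL2 and DUSP4 with 1 each. The stretches of 30 bases below show pentamers of SGK1 and JUNB, the densest, of JUN, and the nonamers of IER5 and FOSL2, with the motif in capitals, 5′ to 3′ on the strand of the gene. They lie at chr6:134169645-134169674, chr6:134169476-134169505, chr19:12793060-12793089, chr1:58780818-58780847, chr1:181092447-181092476 and chr2:28416355-28416384.
SGK1 site 2 of 5: ttaataactaaaATTTAttgaaatggtctt
SGK1 site 3 of 5: aaaatgggcattATTTAtgttttttttttt
JUNB site 1 of 2: atatatttgtgtATTTAacagggaggggaa
JUN site 3 of 3: ttgcttatgaatATTTAtaacagcattctt
IER5 nonamer 2 of 3: cttcctttatTTATTTATTtatttaattat
FOSL2 nonamer: atttattttaTTATTTATTttaaatgttta
The 694 genes with a nonamer had a median of 18.7% and 27.0% left at 8 h in lines D and E, against 32.8% and 32.6% in the shNS replicates. The 7951 genes without it had 23.8% and 33.6% in lines D and E, against 42.4% and 41.3% in the shNS replicates. GGACT, a common context of m6A, was in 58.5% of all 3′UTRs. It was found 7 times each in FOSL2, KLF6 and DUSP4, 5 times in IER2, 4 in IER5, 3 in JUN, 2 in JUND and 1 in JUNB. KLF10 and SGK1 had none. These counts are not set to length, and the 3′UTRs ran from 500 bases in JUNB to 4864 in FOSL2.

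Calls of genes in this list and the lists below are from the main models and were not followed through the other settings. Of 48 other immediate early genes 17 were in the table. In knockdown 1 was lower at 0 h, ZFP36L1 (log2 difference −1.17, adjusted p = 0.0202, 0.136% of all genes called lower), and 4 were lower at 8 h, beside the 4.51% of all genes. These were GADD45B, a stress gene of the GADD45 family (−1.82, adjusted p = 0.0166), PPP1R15A, which directs a phosphatase to eIF2α (−1.60, adjusted p = 0.0247), ZFP36, a protein that binds AU-rich elements (−1.21, adjusted p = 0.0255), and BTG1, an antiproliferative gene (−0.94, adjusted p = 0.0175). GADD45B had 7.60 and 4.60 at 8 h in lines D and E, against 25.6 and 21.5 in the shNS replicates. Across times 5 of the 17 genes were lower in knockdown, beside 4.19% of all genes called lower. The median log2 difference of the 17 genes was 0.15 at 0 h, −0.72 at 8 h and −0.31 at 12 h, beside 0.23, −0.23 and 0.06 for all genes. Their median percent left at 8 h was 13.8% and 22.5% in lines D and E, against 48.0% and 42.8% in the shNS replicates. ATF3, a bZIP protein that pairs with JUN, was like JUN above 100% in shNS. Percent left at 8 h was 16.5% and 86.1% in lines D and E, against 197% and 153% in the shNS replicates. These shares start from unlike and low signals at 0 h, 8.48 and 3.57 in lines D and E, against 1.97 and 2.00 in the shNS replicates.

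Of 24 bZIP partners of AP-1 20 were in the table. BATF3 and ATF5 were higher in knockdown at 0 h (log2 difference 1.01 and 1.00, adjusted p = 0.0461 and 0.0356, 1.33% of all genes called higher). CREM was lower at 8 h (−1.03, adjusted p = 0.0175, 4.51% of all genes called lower). Across times BATF3 was higher (0.76, adjusted p = 0.00562, 5.45% of all genes called higher) and CREM lower (−0.65, adjusted p = 0.0153, 4.19% called lower). BATF3, which represses AP-1 targets as a partner of JUN, had 24.6 and 16.6 at 0 h in lines D and E, against 9.81 and 9.31 in the shNS replicates. Of 29 kinases and SRF-type factors upstream of the immediate early genes 28 were in the table. ELK3, a ternary complex factor, was lower at 8 h (−1.06, adjusted p = 0.0266, 4.51% of all genes called lower). Across times HRAS and MAP2K3 were higher (0.72 and 0.57, adjusted p = 0.0419 and 0.0473, 5.45% of all genes called higher). Each was higher in both lines than in both shNS replicates except at 1 time. HRAS overlapped at 12 h, with 5.25 and 1.88 in lines D and E, against 2.31 and 1.78 in the shNS replicates. MAP2K3 overlapped at 8 h, with 8.73 and 13.1 in lines D and E, against 9.33 and 7.78 in the shNS replicates. ELK3 was lower across times (−0.65, adjusted p = 0.0397, 4.19% of all genes called lower).

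Of 15 genes of ERK feedback 6 were in the table. DUSP7, a phosphatase of ERK, was higher across times (0.63, adjusted p = 0.049), beside 5.45% of all genes called higher. Of 13 other Krüppel-like factors 4 were in the table and none was called at 0, 8 or 12 h or across times. Of 8 genes of JUN protein turnover 7 were in the table, and none was called in those comparisons either. Of 11 genes around SGK1 8 were in the table. NEDD4L, a ubiquitin ligase that SGK1 phosphorylates, and RICTOR, a subunit of the mTORC2 complex that activates SGK1, were lower at 8 h. Their values were −0.93 and −0.78 (adjusted p = 0.0169 and 0.046), beside 4.51% of all genes called lower. NDRG1, an SGK1 substrate, and NEDD4L were lower across times (−1.44 and −0.70, adjusted p = 0.000586 and 0.00415), beside 4.19% of all genes called lower.

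With the mean of each time removed, the log2 levels of the 10 genes were correlated over the 12 libraries, which share their scaling and, within a line, their cells. Over the 45 pairs the median Pearson r was 0.61, and 25 pairs lay above 0.5. The highest was 0.97 between IER2 and IER5, followed by 0.96 between KLF6 and KLF10, and the lowest was −0.45 between JUND and FOSL2. Pairs of other genes were not counted in this way, so these values are not shown to be particular to the 10 genes. Among all other genes with a mean signal of at least 5, COMMD10 had the profile most like the mean of the 10 genes (r = 0.98). The most alike for single genes were MCM7 for JUN (0.99), STAG1 for IER5 (0.99), NCOA2 for KLF6 (0.99) and FBXO5 for SGK1 (0.99). FBXO5 had 2.20 and 2.04 at 8 h in lines D and E, against 4.97 and 4.77 in the shNS replicates.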

How the data were processed

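Polyadenylated RNA of NOMO-1 cells was sequenced in 12 libraries after stranded preparation on an Illumina instrument, per the labels. Alignment and quantification used STAR and RSEM with the build GRCh38, per the submitters' processing notes, with no version given. The deposited values are a signal per gene symbol, made by the authors, and their unit before scaling is not stated in these sources. No counts were used, so depth is unknown and no counting interval is given. The labels' treatment protocol names FTO and the drugs CS1 and CS2, and the sample titles, which name ALKBH5 hairpins, were followed.

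The members and gene lists were chosen with earlier results of these data known. Values were tested as log2(signal + 1) over all 9529 genes with limma 3.58.1 in R 4.3.3 (mean-variance trend, empirical Bayes, Benjamini-Hochberg adjusted p under 0.05), in a model of 6 group means, and across times in an additive model with a correlation within lines. The code was tested on simulated data with known changes. The rule for named genes was the 10 members, ALKBH5, up to 4 called genes of each list in a comparison, and the nearest profiles, of which the text gives a part. ATF3 was chosen after its values were seen.

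Pairing was checked by correlating deviations from the group means between times. For the knockdown lines, the same line at each time by its column letter, r was 0.777, 0.657 and 0.900. For shNS numbers it was 0.271, 0.0651 and 0.138, so these did not pair in every comparison. The main model had no block. Alternatives were a pseudocount of 0.1, a mean of at least 5, no filter, median-of-ratios scaling, rescaling to the spike-ins, no trend, each hairpin line alone, the line as a block, and leaving out each library. Where a library then stood alone in a group, its spread was taken from the other groups.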

Additional observations from a re-analysis of the deposited data

Results flagged for a closer look

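On the deposited scale the signal of JUN lay on opposite sides of its 0 h level in the 2 arms at 8 h. Both knockdown lines had less JUN than at 0 h, with 61.4% and 68.1% left in lines D and E, and both shNS replicates had more, at 147% and 123%. Neither change passed the threshold (limma adjusted p = 0.199 in knockdown and 0.390 in shNS), and with median-of-ratios scaling both were above 0 (log2 change 1.16 in knockdown and 1.62 in shNS). The difference was tested as an interaction and did not pass the threshold with lines taken as independent (log2 difference −1.02, SE 0.63, limma adjusted p = 0.325). Groups of 2 libraries are too small for a check of single outlying libraries.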

How the results depend on the processing

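For the 10 members 2190 values were recomputed, a part of them values of percent left, which have no threshold. Of all these 1927 kept their direction and their side of the threshold, or for percent left shifted by less than the SD of the arm. Another 73 kept the direction but lost the call, 119 gained one and 71 reversed. The setting with no filter removed no gene and tests nothing, and its values are among the 1927. Read depth is unknown, and signals near 1, as for KLF10 and DUSP4 at 12 h, limit precision most. Beside what is given above for the block, the cause of the shifts below was not tested.

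Median-of-ratios scaling called 35 genes at 0 h and 1584 genes with 4 members at 12 h. It called 4284 genes (2 members) by 8 h and 4412 (4 members) by 12 h in knockdown, and 4049 (5 members) by 8 h and 4914 (6 members) by 12 h in shNS. On it these log2 values reversed. At 0 h IER2 was −0.065, IER5 −0.10 and DUSP4 −0.063, and at 8 h JUND was 0.23. By 8 h in knockdown JUN was 1.16, JUND 0.0038 and KLF6 0.61. By 12 h in knockdown JUN was 1.59, JUNB 0.053, JUND 0.18, FOSL2 0.28, IER5 0.10 and KLF6 1.00. By 8 h in shNS JUNB was 0.29, JUND 0.16, IER2 0.69, IER5 0.43 and KLF6 0.86. By 12 h in shNS JUN was 1.84, JUNB 0.75, IER2 0.62, IER5 0.60, KLF6 1.25 and SGK1 0.44. The difference of the 12 h change was 0.20 for JUND and 0.12 for DUSP4. Spike-in rescaling called 166 genes and 1 member at 8 h and 0 members across times, with JUND at 0.052 at 8 h. A pseudocount of 0.1 called 18 genes at 0 h, 531 genes and 1 member at 12 h and 2 members across times, and put JUND at 0.015 in the difference of the 12 h change. A mean of at least 5 called 82 genes at 0 h.

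With line D alone, where the spread within groups comes from shNS only, 5006 genes (6 members) were called at 0 h, 5352 (7) at 8 h, 4104 (5) at 12 h, 4636 (8) across times, and 6285 (9) and 1293 (5) for the differences of the 8 h and 12 h change. KLF6 was then 0.14 and KLF10 0.23 at 0 h, FOSL2 0.21 at 12 h, DUSP4 0.35 across times and JUND 0.20 in the difference of the 12 h change. With line E alone the counts were 2078 (3), 2643 (9), 2234 (9), 2885 (10), 102 (2) and 224 (3). IER2 was then −0.0018, IER5 −0.10, DUSP4 −0.29 and SGK1 −0.10 at 0 h, JUND 0.25 at 8 h, JUN −0.67 and DUSP4 −0.35 at 12 h, JUN −0.40 across times and FOSL2 −0.023 in the difference of the 12 h change.

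With the line as a replicate block the difference of the 8 h change called 2493 genes (8 members) and that of the 12 h change 222 (3 members). With the block in the knockdown lines alone these were 2076 (8) and 160 (2), and with the spread of each gene alone 0. In the comparison across times 2008 genes (3 members) were called with no block and 490 with line means, which called SGK1 (adjusted p = 0.0301) in place of FOSL2. In the changes over time the block also called KLF6 lower by 8 h in shNS (limma adjusted p = 0.0311), and beside this and the changes of JUN given above it altered no call of a member's change over time. With the spread of each gene alone IER2 by 8 h in shNS lost its call (adjusted p = 0.147), and the calls that the block gave to KLF6 by 8 h in shNS (0.27) and to JUN by 8 h in knockdown (0.101) and in shNS (0.232) were lost.

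Leaving out each library in turn gave between 1 and 1018 genes (0 to 1 members) at 0 h, 3 to 2355 (0 to 5) at 8 h, 1 to 402 (0 members) at 12 h and 459 to 1573 (0 to 4) across times. The changes gave 8651 to 9251 genes (9 members) by 8 h and 9443 to 9498 (9 to 10) by 12 h in knockdown, and 6361 to 8127 (5 to 8) and 9431 to 9496 (9 to 10) in shNS. The differences gave 0 to 7 genes (0 to 1 members) at 8 h and 0 to 4 (0 members) at 12 h. Values that reversed ran at 0 h from −0.0018 to 0.37 for IER2, −0.10 to 0.37 for IER5, −0.72 to 0.14 for KLF6, −0.39 to 0.23 for KLF10, −0.29 to 0.59 for DUSP4 and −0.10 to 0.93 for SGK1. At 8 h JUND ran from −0.36 to 0.25. At 12 h JUN ran from −0.67 to 1.04, FOSL2 from −1.01 to 0.21 and DUSP4 from −0.35 to 0.57. In the difference of the 12 h change JUN ran from −1.30 to 0.41, JUND from −0.21 to 0.14, FOSL2 from −0.056 to 1.16, KLF6 from −0.77 to 0.088, KLF10 from −0.54 to 0.073 and DUSP4 from −0.50 to 0.42. Across times JUN ran from −0.035 to 0.31 and DUSP4 from −0.15 to 0.046.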
